A study of Mus musculus with 60 samples.

Results

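The late interval of white adipocyte differentiation, day 6 against day 4, was examined in cultures of primary mouse white preadipocytes (labelled pWAT). Genes were taken by 1 rule, a mean log2 value of at least 4 over the 3 libraries of day 6 or over the 3 libraries of day 4, which kept 12917 of the 18746 genes in the pWAT table. Of these, 12681 reached that level on both days, 131 at day 6 only and 105 at day 4 only. The comparison uses 6 of the 60 libraries in the series. The study measured RNA in a differentiation time course of pWAT, primary brown (pBAT) and immortalized brown (B9) adipocytes, in drug-treated brown adipocytes, and in brown fat of mice lacking Alas1, the first enzyme of heme synthesis.

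The day 6 group (libraries 1, 2 and 3) and the day 4 group (libraries 2, 3 and 4) were both wild type. Preadipocytes came from newborn pups and were kept in medium with 20% serum, then differentiated in medium with 10% serum; no drug or allele set the groups apart. The labels do not say how many pups were pooled, from which fat depot the cells came, or which hormones started differentiation, nor whether the 3 libraries of a day came from separate cultures. P-values and SEs therefore measure the spread between libraries of the same day, which may be technical. That spread is pooled over all 12 pWAT libraries, days 0 and 2 included, and is not that of days 6 and 4 alone. For Pnpla3, for example, the SD was 0.09 at day 6 and 0.10 at day 4, but 0.50 at day 2 and 0.74 at day 0. The p0-p1 origin means that neonatal precursors, not those of adult fat, were followed. In these bulk samples fewer cells of a type and less RNA per cell cannot be told apart.

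White adipocytes store energy as triglyceride in a single large lipid droplet. In culture, fibroblast-like precursors stop dividing, pass through a hormone-driven early phase under C/EBP-beta, C/EBP-delta and Klf5, and then a stable phase under PPAR-gamma and C/EBP-alpha, which switch on fat uptake, fatty acid synthesis, lipolysis and adipokine secretion. The late interval is the part of this course in which droplets fill and the mature pattern is reached.

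The white adipocyte markers were present, as the label states. All of the white adipocyte markers set out for the check, Adipoq, Fabp4, Plin1, Cidec, Lep and Retn, had day 6 means between 9.34 (Lep) and 16.4 (Fabp4). Most of these are shared with brown adipocytes: Fabp4 also had a day 6 mean of 16.4 in pBAT cells. The brown markers set out for the check were divided. Ucp1, the uncoupling protein of brown fat, lay between -0.95 and -0.82 at day 6 and at -0.96 at day 4, near the lowest value in the table (-1.68). Zic1, a brown precursor gene, lay between 0.58 and 0.71 at day 6, and Cidea between 1.04 and 1.35. Cox8b and Lhx8, however, reached the level at which genes were tested. Macrophage RNA was present on both days. The summed linear values of 24 macrophage markers made 0.216 to 0.231% of each day 6 library and 0.207 to 0.217% of each day 4 library. Such a sum weighs the highest members most, Gpnmb among them. Of other cell types, 1 of 16 lymphocyte markers, 1 of 14 neutrophil and mast cell markers, 1 of 16 mesothelial markers and 4 of 19 skeletal muscle markers, but also 9 of 15 endothelial, 8 of 10 Schwann and glial and 15 of 16 smooth muscle and pericyte markers, reached the level at which genes were tested.

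Values are the deposited log2 values, which the authors normalized across the libraries of a table; 1 unit is a factor of 2 and a change is day 6 minus day 4. They are not divided by transcript length, so levels are not compared between genes. These values do not show how deeply a library was sequenced. Low values vary little between replicates (median SD 0.0654 where the mean was under 1, against 0.119 where it was 9 or more), so changes of low genes may be understated, which was not tested. Linear values summed to 21.9 M, 22.5 M and 20.0 M in day 6 libraries 1, 2 and 3, and to between 20.4 M and 20.8 M in the day 4 libraries (M, mega units). Day 6 library 3 stood somewhat apart, differing from libraries 1 and 2 by a root mean square of 0.373 and 0.364, against 0.296 between those 2 and 0.264 to 0.279 between day 4 libraries. Without it the counts given next were 2070 and 1880.

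Day 6 differed from day 4 across a large part of the transcriptome, about evenly in both directions. Of 12917 genes, 2101 were higher at day 6 (16.3%) and 2012 lower (15.6%), by limma at an adjusted p under 0.05 in a fit of all 12 pWAT libraries; 31.8% passed in either direction. A change of at least 2-fold was seen for 254 of the higher and 149 of the lower genes. The median change of all genes was 0.01. Counts of each list below are to be read against the shares of all genes, 16.3% higher and 15.6% lower. All 3 day 6 libraries lay above all 3 day 4 libraries for 2898 genes (22.4%), and below them for 2633 (20.4%).

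**Figure D1:**
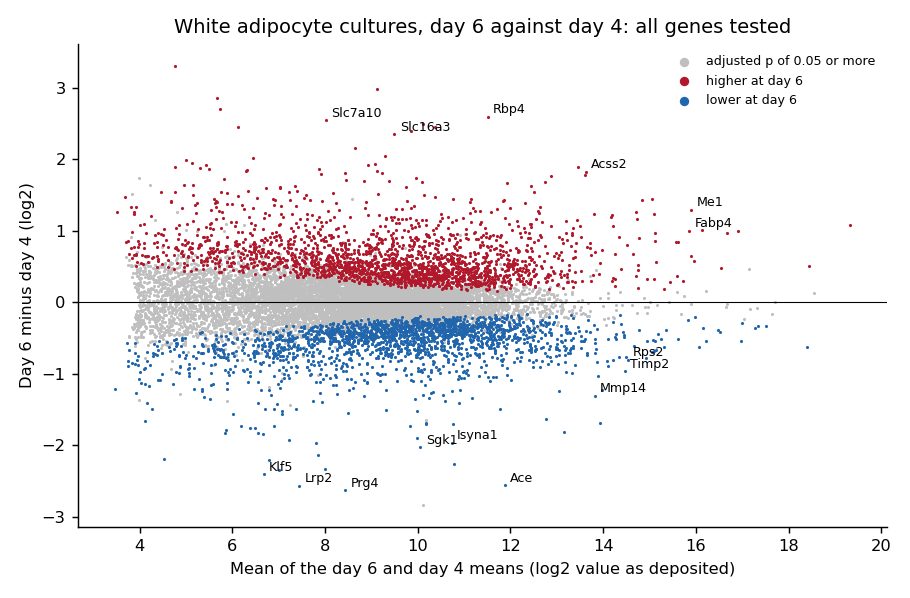
Change between day 6 and day 4 (log2, vertical) against the mean of the 2 day means (log2, horizontal) for each of the 12917 genes tested; red points were higher and blue points lower at day 6 by limma at an adjusted p under 0.05, and grey points did not pass. The 2101 red and 2012 blue points spread over the whole range of levels, with Rbp4, Slc7a10 and Slc16a3 among the largest rises and Prg4, Lrp2 and Ace among the largest falls.

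The 12 largest rises and 12 largest falls are taken among called genes with a mean of at least 6 whose days did not overlap, so the lack of overlap is a condition of the choice. Rbp4, the retinol carrier secreted by adipocytes and liver, had 12.83, 12.88 and 12.71 in the day 6 libraries, against 10.27, 10.10 and 10.28 in the day 4 libraries. Its level was thus 6.03-fold higher (change 2.59, SE 0.18, limma adjusted p = 1.9e-07). Slc7a10, a neutral amino acid transporter enriched in white adipocytes, had 9.33, 9.28 and 9.25 at day 6, against 6.85, 6.54 and 6.82 at day 4 (change 2.55, SE 0.28). Egln3, an oxygen-sensing prolyl hydroxylase and itself a known target of hypoxia-inducible factors, had 11.59, 11.72 and 11.47 at day 6, against 9.35, 9.01 and 9.05 at day 4 (change 2.46, SE 0.12).

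Gpt, the cytosolic alanine aminotransferase, rose by 2.40 on the log2 scale, with 11.06, 11.11 and 10.98 at day 6 and 8.70, 8.56 and 8.70 at day 4. Slc16a3, the lactate exporter MCT4, had 10.85, 10.72 and 10.45 at day 6, against 8.60, 8.04 and 8.32 at day 4 (change 2.35, SE 0.14). Phospho1, a phosphatase acting on phosphocholine and phosphoethanolamine, had 11.60, 11.65 and 10.86 at day 6, against 8.79, 8.94 and 8.88 at day 4, so that library 3 was the lowest of the day 6 libraries while still above day 4. Tshr, the thyrotropin receptor, which adipocytes also carry, rose by 1.94 (SE 0.29), and Sema3g, a secreted semaphorin, by 2.16 (SE 0.17). Snhg11, a noncoding host gene of small nucleolar RNAs, had the largest change under this rule (2.99, SE 0.24), and Odf3l1 rose by 2.02 (SE 0.20).

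Also among the 12 largest rises were 2 genes known from macrophages. F13a1, the A subunit of coagulation factor XIII, had 10.18, 10.36 and 10.41 at day 6, against 8.59, 8.18 and 8.04 at day 4 (change 2.05, SE 0.22). Fcrls, a scavenger receptor of tissue macrophages and microglia, had 7.17, 7.50 and 7.40 at day 6, against 4.56, 4.97 and 5.17 at day 4 (change 2.46, SE 0.24).

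Among the largest falls, Klf5, the early adipogenic transcription factor, had 5.42, 5.44 and 5.56 in the day 6 libraries, against 8.04, 7.81 and 7.80 in the day 4 libraries. It was 5.31-fold lower (change -2.41, SE 0.12, limma adjusted p = 1.9e-08), on top of a fall of 1.31 between day 2 and day 4. Prg4, the lubricating proteoglycan lubricin, had 7.26, 7.10 and 6.99 at day 6, against 9.97, 9.67 and 9.60 at day 4 (change -2.63, SE 0.16). Cd24a, a surface glycoprotein that marks adipocyte progenitors in mouse fat, had 6.65, 7.05 and 6.82 at day 6, against 9.16, 9.15 and 9.20 at day 4 (change -2.33, SE 0.10). All 3 had also fallen between day 2 and day 4, by limma at the same threshold.

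Other falling genes had risen in the interval before. Ace, angiotensin-converting enzyme, had day means of 6.51, 12.26, 13.16 and 10.59 at days 0, 2, 4 and 6. Its 3 day 6 values of 10.74, 10.63 and 10.41 stood against 13.21, 13.19 and 13.07 at day 4 (change -2.56, SE 0.21), and the reversal itself passed the test: its late change minus its change in the interval before was -3.46 (limma adjusted p = 1.2e-05). Npr1, the receptor for atrial natriuretic peptide, had 5.70, 6.32 and 5.47 at day 6, against 8.02, 8.29 and 8.22 at day 4 (change -2.35, SE 0.25), after rising by 1.53 between day 2 and day 4. Cldn1, a tight junction protein, fell by 1.97 (SE 0.15) and Mamdc2 by 2.21 (SE 0.25). Both had risen between day 2 and day 4, by 1.74 and 2.43.

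Lrp2 (megalin, an endocytic receptor) fell by 2.57 (SE 0.14), Sgk1, a hormone-induced kinase, by 2.03 (SE 0.17), and Isyna1, the enzyme of myo-inositol synthesis, by 1.96 (SE 0.09). These 3 had changed little between day 2 and day 4 (-0.10, -0.07 and -0.04, none past the test). Clca3a1 fell by 2.27 (SE 0.13); a close paralog, Clca3a2, makes the assignment of its reads uncertain.

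**Figure D2:**
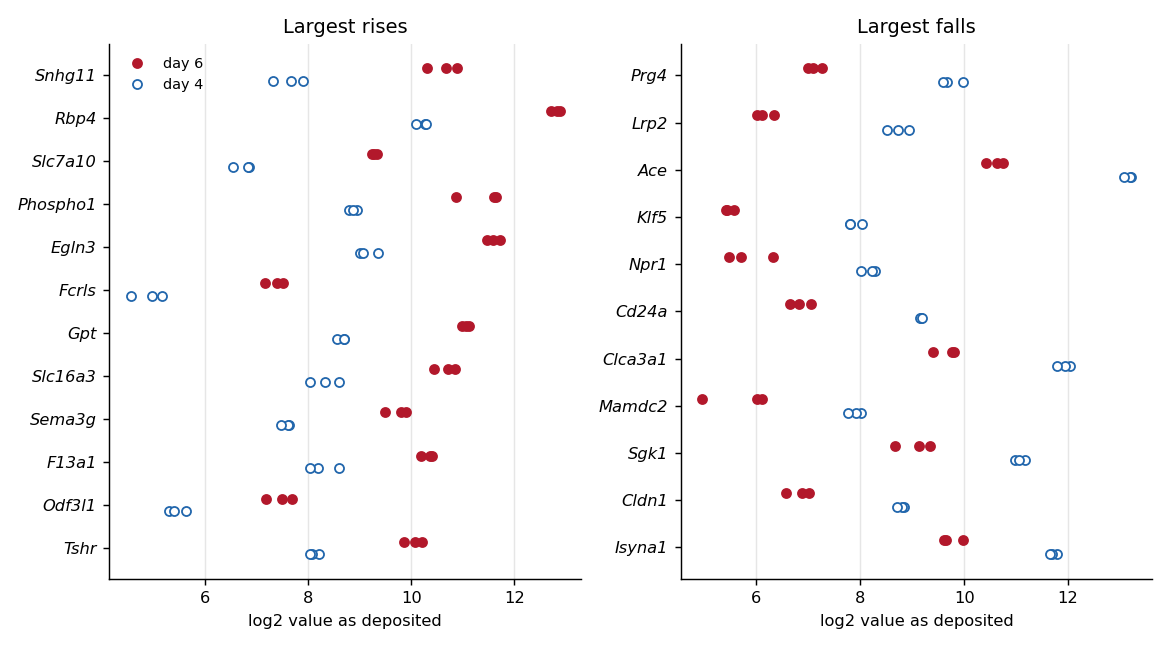
Log2 values as deposited (horizontal) of the 12 largest rises (left) and 11 of the 12 largest falls (right) in each of the 3 day 6 libraries (filled red) and 3 day 4 libraries (open blue). The genes were chosen for days that do not overlap; the spread within a day is widest for Mamdc2 at day 6, where 1 library lay at 4.96 and the others at 6.11 and 6.01.

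Glucose transport and glycolysis genes rose as a block. Of 25 tested, 20 were higher and 1 lower at day 6, against 16.3% and 15.6% of all genes, and the median change was 0.99, against 0.01. Every step from glucose entry to lactate export had at least 1 higher member. Their summed linear values made 3.02, 2.90 and 2.54% of the 3 day 6 libraries, against 1.30 to 1.40% of the day 4 libraries. The same sum had been 1.37 to 1.53% at day 0 and 0.722 to 0.739% at day 2, so that day 4 stood near the level before differentiation and day 6 above it.

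Pgk1, phosphoglycerate kinase, had the smallest adjusted p of the list. It had 14.43, 14.50 and 14.58 at day 6, against 12.83, 12.69 and 12.66 at day 4, 3.43-fold higher (change 1.78, SE 0.07, limma adjusted p = 3e-09), and its change was 1.08 above that between day 2 and day 4 (limma adjusted p = 1.8e-05). Ldha, the lactate dehydrogenase subunit that favours lactate, had 15.71, 15.74 and 15.67 at day 6, against 14.55, 14.37 and 14.50 at day 4 (change 1.23, SE 0.06). Its late change equalled that between day 2 and day 4 (1.24). Pkm, muscle-type pyruvate kinase, had 15.92, 15.87 and 15.57 at day 6, against 14.36, 14.28 and 14.37 at day 4 (change 1.45, SE 0.08), with a day 2 mean of 13.88.

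The other members followed the pathway as follows. Of the glucose transporters, the insulin-responsive Slc2a4 rose by 0.99 (SE 0.18) and the ubiquitous Slc2a1 by 0.58 (SE 0.08). Hexokinase Hk2 rose by 0.66 (SE 0.09), while Hk1 did not move detectably (-0.01, SE 0.09). Phosphofructokinase Pfkl rose by 1.54, Pfkp by 0.87 and Pfkm by 0.61, and Pfkfb3, which makes the activator fructose 2,6-bisphosphate, by 0.71. Gpi1, Aldoa, Aldoc, Tpi1, Gapdh, Pgam1 and Eno1 rose by 0.97 to 1.60; reads of Gapdh, which has many processed pseudogenes, may be shared. Pdk1, which blocks pyruvate dehydrogenase, rose by 1.28 and the lactate transporter Slc16a1 by 0.78. Eno3, the muscle enolase, was the member that fell (-0.42, SE 0.15, limma adjusted p = 0.044). Ldhb (-0.11), Pdk2 (0.15) and Pdk4 (-0.47) did not pass.

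The promoters of 4 glycolytic genes are shown because these genes moved together and 3 of them hold a short element, ACGTG. It is a form of the core of hypoxia response elements, and with a C before it makes the E-box CACGTG. Of the matches shown, only the overlapping ones in Ldha have that E-box form. The element was chosen after the changes were seen. The sequences are the 200 bases before the RefSeq start of Pgk1 (chrX:106186900-106187099), Ldha (chr7:46845604-46845803), Slc16a3 (chr11:120948867-120949066) and Pkm (chr9:59656376-59656575), all on the plus strand of GRCm38.p6, with ACGTG and its reverse complement CACGT in capitals.
Pgk1: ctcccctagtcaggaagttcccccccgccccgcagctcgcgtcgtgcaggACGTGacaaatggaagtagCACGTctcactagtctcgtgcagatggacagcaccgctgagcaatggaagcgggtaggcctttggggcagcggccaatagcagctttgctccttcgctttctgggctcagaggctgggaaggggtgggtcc
Ldha: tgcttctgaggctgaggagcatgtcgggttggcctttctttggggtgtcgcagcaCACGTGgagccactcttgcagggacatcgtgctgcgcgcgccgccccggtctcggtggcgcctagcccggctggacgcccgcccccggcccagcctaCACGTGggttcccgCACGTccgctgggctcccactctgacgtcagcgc
Slc16a3: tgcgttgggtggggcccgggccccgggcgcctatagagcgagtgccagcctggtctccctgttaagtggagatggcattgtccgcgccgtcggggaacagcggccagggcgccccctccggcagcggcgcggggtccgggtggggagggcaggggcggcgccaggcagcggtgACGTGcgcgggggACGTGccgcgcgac
Pkm: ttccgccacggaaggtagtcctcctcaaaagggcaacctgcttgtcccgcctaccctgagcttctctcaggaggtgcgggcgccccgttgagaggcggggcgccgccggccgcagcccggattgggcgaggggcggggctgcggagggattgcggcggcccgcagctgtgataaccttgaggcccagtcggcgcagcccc

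Pgk1 held 1 match on each strand, beginning 150 and 131 bases before the start. In Ldha, 2 matches on each strand overlap as CACGTG, beginning 145 and 48 bases before the start, and a further CACGT begins 34 bases before it; Slc16a3 held 2, at 27 and 14 bases. Pkm held none in this window, although its change was close to that of Ldha. At the first listed start, 10 of the 24 glycolysis genes with an entry held the element on either strand (41.7%), against 1830 of 9933 genes tested (18.4%) and 4584 of all 32851 starts in the table (14.0%). A match is a description of letters, not of a bound site.

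Genes of the mature fat cell rose as well. Of 22 general adipocyte genes, 19 were higher and 0 lower, with a median change of 0.72. Fabp4, the adipocyte fatty acid carrier, had 16.30, 16.29 and 16.49 at day 6, against 15.35, 15.30 and 15.43 at day 4 (change 1.00, SE 0.09, limma adjusted p = 2.6e-06). Cfd (adipsin), a secreted complement protease, had 14.13, 14.01 and 13.97 at day 6, against 12.97, 12.88 and 13.06 at day 4 (change 1.06, SE 0.08). Adipoq, which encodes adiponectin, had 13.70, 13.67 and 13.86 at day 6, against 13.04, 12.98 and 13.06 at day 4 (change 0.72, SE 0.10). None of the 3 showed overlap between the days, but Fabp4 and Cfd were among the genes with the smallest adjusted p of the list. Lep, the leptin gene, had 9.33, 9.32 and 9.36 at day 6, against 7.49, 7.56 and 7.53 at day 4 (change 1.81, SE 0.37, limma adjusted p = 0.0018), from a day 2 mean of 3.69.

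The late rise of these genes was smaller than the rise before it. For 17 of the 22 the late change lay below that between day 2 and day 4 by the test of that difference, for 0 above it, and the medians were 0.72 in the late interval and 2.54 in the preceding one. Rbp4 did not pass that test: its 2 steps were 2.59 late and 2.91 before (limma adjusted p of the difference = 0.50). Gpd1 (0.09), Pck1 (0.18) and Car3 (0.46) were the members that did not pass between day 6 and day 4.

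Of 19 fatty acid synthesis genes, 16 were higher and 0 lower (median 0.65). Acss2, which makes acetyl-CoA from acetate, had 14.58, 14.58 and 14.44 at day 6, against 12.78, 12.65 and 12.69 at day 4 (change 1.83, SE 0.10, limma adjusted p = 3.3e-08). Me1, malic enzyme, a source of NADPH, had 16.51, 16.58 and 16.54 at day 6, against 15.32, 15.23 and 15.21 at day 4 (change 1.29, SE 0.07). Elovl6, which elongates palmitate, had 12.54, 12.76 and 12.95 at day 6, against 11.11, 11.07 and 11.08 at day 4 (change 1.66, SE 0.09). Slc25a1, which exports citrate from mitochondria, had 15.50, 15.40 and 15.10 at day 6, against 14.14, 14.01 and 14.07 at day 4 (change 1.26, SE 0.09). The day 6 libraries of all 4 lay above every day 4 library. These 4 were named for the smallest adjusted p of the list, so the lack of overlap follows largely from the choice.

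The core enzymes Acly (0.98), Acaca (0.85) and Fasn (0.51) rose less than Acss2, and Scd1, stearoyl-CoA desaturase, rose by 1.08 with a wide spread at day 6 (19.87 ± 0.72, against 18.79 ± 0.16 at day 4; SD, n = 3 each). Summed over the list, linear values made 10.3, 10.8 and 6.94% of day 6 libraries 1, 2 and 3, against 4.74 to 5.52% of the day 4 libraries, library 3 being the lowest of day 6. Scd1 makes a large part of this sum, so its size and its spread at day 6 are not those of every member. Of the regulators, Srebf1 rose by 0.36 (limma adjusted p = 0.035), its days overlapping, and Mlxipl (ChREBP) did not move detectably (-0.08, SE 0.16). The 3 genes of the list that did not pass were Mlxipl, Fads1 (0.21) and Mid1ip1 (0.35).

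Triglyceride assembly genes followed the same direction, 16 of 23 higher and 0 lower (median 0.72). Gpam, the mitochondrial enzyme of the first acylation step, had 14.77, 14.76 and 14.77 at day 6, against 13.68, 13.58 and 13.47 at day 4 (change 1.19, SE 0.07). Agpat2, the next acyltransferase, had 15.39, 15.43 and 15.10 at day 6, against 14.19, 14.10 and 14.15 at day 4 (change 1.16, SE 0.08). Fabp5 rose by 1.13 (SE 0.10) and the fatty acid transport protein Slc27a1 by 0.90 (SE 0.07). Of 15 lipid droplet genes, 10 were higher and 2 lower. In this list and in the triglyceride list, 1 member each entered the test through its day 6 level only. Plin2, a droplet coat protein, rose by 0.83 (SE 0.06) and the lipase relative Pnpla3 by 1.68 (SE 0.29). Hsd17b11, a droplet-associated dehydrogenase, fell by 0.65 (SE 0.09), and Abhd5, the activator of the triglyceride lipase, rose by 0.60 (SE 0.07).

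Lipolysis genes were mostly higher. Of 20, 15 were higher and 1, Npr1, lower (median 0.63). Ffar4, a fatty acid receptor that restrains lipolysis, had 8.78, 8.95 and 8.70 at day 6, against 7.21, 6.91 and 6.92 at day 4 (change 1.80, SE 0.15). Mgll, monoacylglycerol lipase, had 13.06, 13.15 and 13.15 at day 6, against 12.27, 12.08 and 12.28 at day 4 (change 0.91, SE 0.09), and Adrb3, the beta-3 adrenergic receptor, rose by 1.12 (SE 0.13). The natriuretic peptide receptor Npr1 fell, as given above, while its clearance partner Npr3 was at -0.04 and did not pass.

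Secreted factors divided. Of 27 adipokines and secreted proteins, 17 were higher and 7 lower (median 0.62). Itih5, a hyaluronan-binding matrix protein, had 9.60, 9.68 and 9.29 at day 6, against 8.35, 8.17 and 8.10 at day 4 (change 1.31, SE 0.13). Saa3, an acute phase apolipoprotein, had 5.39, 5.64 and 5.89 at day 6, against 7.33, 7.69 and 7.41 at day 4 (change -1.83, SE 0.15). The lower members, from -1.83 to -0.44, included Lcn2, Agt, Cthrc1, Metrnl and Gdf15.

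Of 28 transcription factors tested that drive or restrain adipogenesis, counts in both directions were near the 16.3% and 15.6% of all genes or above them. Higher were 5 genes, Ebf2, Cebpa, Srebf1, Pparg and Zfp467, by 0.33 to 0.74, and lower were 8, with a median of -0.04 over the list. Pparg, the master regulator of the mature state, had 12.65, 12.68 and 12.37 at day 6, against 12.19, 12.13 and 12.25 at day 4 (change 0.38, SE 0.10, limma adjusted p = 0.0096). Cebpd, an early regulator induced by hormones, had 9.73, 9.34 and 9.31 at day 6, against 10.75, 10.71 and 10.82 at day 4 (change -1.30, SE 0.11, limma adjusted p = 1.5e-06). Klf4, another early factor, fell by 0.85 (SE 0.08), and Zfp467, a zinc finger protein that favours adipogenesis, rose by 0.74 (SE 0.12). Cebpb, the partner of Cebpd, was at 0.03 and did not pass. The other lower members were Nr2f2, Gata2, Tcf7l1, Klf15 and Klf9, by -0.76 to -0.17, restraining factors such as Gata2 among them.

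**Figure D3:**
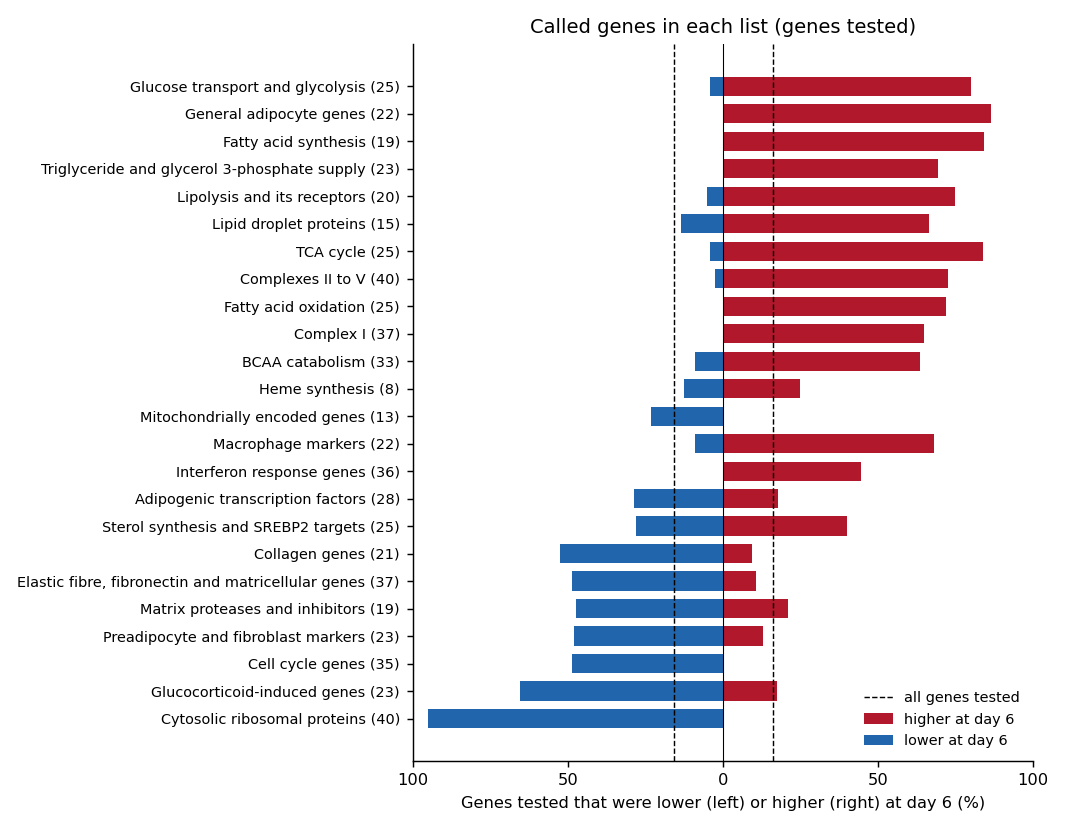
Percentage of the tested genes of each list (number in brackets) that were higher (red, right) or lower (blue, left) at day 6 by limma at an adjusted p under 0.05; dashed lines give the same percentages for all 12917 genes, 16.3% higher and 15.6% lower. Glycolysis, lipid and nuclear mitochondrial lists extend far to the right, and ribosomal protein, glucocorticoid-induced and matrix lists to the left.

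Nuclear genes of mitochondrial metabolism rose by moderate steps. Of 25 TCA cycle genes, 21 were higher and 1, Idh2 (-0.23), lower (median 0.47). Complex I had 24 of 37 higher and 0 lower (median 0.34), complexes II to V 29 of 40 higher and 1, Atp5g1 (-0.32), lower (median 0.39), and fatty acid oxidation 18 of 25 higher and 0 lower (median 0.46). Pdhb, a pyruvate dehydrogenase subunit, had 13.75, 13.74 and 13.89 at day 6, against 12.84, 12.83 and 12.87 at day 4 (change 0.95, SE 0.07). Pcx, pyruvate carboxylase, had 16.10, 16.01 and 15.84 at day 6, against 15.19, 15.11 and 15.12 at day 4 (change 0.84, SE 0.09), and citrate synthase Cs rose by 0.67 (SE 0.06). Cpt2, the inner membrane carnitine acyltransferase, rose by 0.70 (SE 0.07), and Ndufb3 of complex I by 1.01 (SE 0.13). Cpt1a, the usual entry gate of fatty acid oxidation, was at -0.12 and did not pass.

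Mitochondrially encoded transcripts did not follow. Of 13, 0 were higher and 3 lower (median -0.17). The lower ones were mt-Atp8 (-0.41, SE 0.11, limma adjusted p = 0.012), mt-Atp6 (-0.33, limma adjusted p = 0.025) and mt-Nd1 (-0.33, limma adjusted p = 0.036). The last of these had 17.14, 17.44 and 16.94 at day 6, against 17.51, 17.51 and 17.50 at day 4, a spread at day 6 far above that at day 4, and it lost the call under 7 alternatives, with a change of -0.22 without library 3 of day 6 (limma adjusted p = 0.12). The call for mt-Atp6 was lost under 6 alternatives, among them quantile normalization (change -0.18, limma adjusted p = 0.12). All 13 together made 6.25 to 7.51% of the summed values at day 6, against 7.35 to 7.63% at day 4.

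Genes of branched-chain amino acid (BCAA) breakdown, whose products feed the TCA cycle and fatty acid synthesis, were mostly higher, 21 of 33, with 3 lower (median 0.43). Pccb, a subunit of propionyl-CoA carboxylase, had 11.79, 11.70 and 11.72 at day 6, against 10.91, 10.91 and 10.98 at day 4 (change 0.80, SE 0.07, limma adjusted p = 8.8e-07). Bckdha, of the ketoacid dehydrogenase that commits the carbon skeletons, had 12.72, 12.53 and 12.32 at day 6, against 11.79, 11.71 and 11.87 at day 4 (change 0.73, SE 0.10). Echs1 rose by 0.75, Hibadh by 0.64, Aldh6a1 by 0.51 and Hadha by 0.49 (SE 0.06 to 0.08). The first step did not take part: Bcat2, the mitochondrial transaminase, had 12.58, 12.54 and 12.17 at day 6, against 12.57, 12.53 and 12.60 at day 4, with overlap and no call (-0.14, SE 0.11, limma adjusted p = 0.35). Bcat1, the cytosolic transaminase, fell by 0.75 (SE 0.16), and the other lower members were Oxct1 and Hsd17b10.

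Of 8 heme synthesis genes tested, 2 were higher and 1 lower (median 0.16), against 31.8% of all genes called in either direction, so that the count is near the background. Alas1, which sets the rate of the pathway, had 11.93, 12.08 and 11.76 at day 6, against 12.40, 12.21 and 12.23 at day 4 (change -0.36, SE 0.09, limma adjusted p = 0.0072). It had risen by 1.45 between day 2 and day 4, and its late change lay 1.81 below that one (limma adjusted p = 2.4e-06). Urod, the fifth enzyme, had 10.03, 9.85 and 9.83 at day 6, against 9.68, 9.48 and 9.51 at day 4 (change 0.35, SE 0.09, limma adjusted p = 0.0095). Alad, the second, had 9.72, 9.70 and 9.26 at day 6, against 9.13, 9.12 and 9.24 at day 4 (change 0.39, SE 0.11, limma adjusted p = 0.016), library 3 lying close to day 4; it lost the call under 5 alternatives, with an adjusted p by limma of 0.055 in the fit of the 6 libraries alone. Ppox (0.36), Uros (0.20), Fech (0.13) and Cpox (0.04) did not pass, and Alas2, the erythroid isozyme, was under the level tested.

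Brown adipocyte and thermogenic genes were higher for 6 of 20 tested and lower for 2 (median 0.23), against 16.3% and 15.6% of all genes. The share called higher lay above that of all genes and the share called lower below it. These differences rest on few members and were not tested. Cox7a1, a complex IV subunit of brown fat and muscle, had 8.76, 8.76 and 8.86 at day 6, against 6.84, 6.82 and 7.14 at day 4 (change 1.86, SE 0.15, limma adjusted p = 6.6e-07). Cyb5b, an outer membrane cytochrome, rose by 0.59 (SE 0.07), while S100b and Lhx8 were lower, at -0.59 and -0.66. Cox8b, another brown fat subunit of the same complex, stayed at 8.89 ± 0.06 at day 6 and 8.92 ± 0.10 at day 4 (SD, n = 3 each), and Ucp1, Cidea, Dio2 and Zic1 were all under the level tested. 

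Cytosolic ribosomal protein genes fell almost without exception. Of 40 tested, 38 were lower and 0 higher, the median change was -0.59, and the changes ran from -0.81 to -0.03. Rps18 had 12.42, 12.40 and 12.46 at day 6, against 13.13, 13.09 and 13.29 at day 4 (change -0.75, SE 0.06, limma adjusted p = 1.6e-06). Rpl10a had 12.01, 12.21 and 12.21 at day 6, against 12.84, 12.96 and 13.04 at day 4 (change -0.81, SE 0.07), and Rps2 had 14.25, 14.19 and 13.95, against 14.87, 14.92 and 15.01 (change -0.80, SE 0.08). The days were far apart for all 3 of these components of the small and large subunits, which were named for their small adjusted p.

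Rps20 (-0.45) and Rpl5 (-0.03) were the members that did not pass. Summed linear values of the list were 1.01, 0.97 and 1.21% of the day 6 libraries, against 1.58 to 1.82% of the day 4 libraries, 2.67 to 2.85% at day 2 and 2.39 to 2.53% at day 0. The fall continued the one before it: between day 2 and day 4 all 40 were lower, with a median of -0.57, and the late change differed from the preceding one for 0 of the 40 genes at an adjusted p under 0.05. Ribosomal protein genes have many processed pseudogenes, so single members are uncertain where reads are shared.

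**Figure D4:**
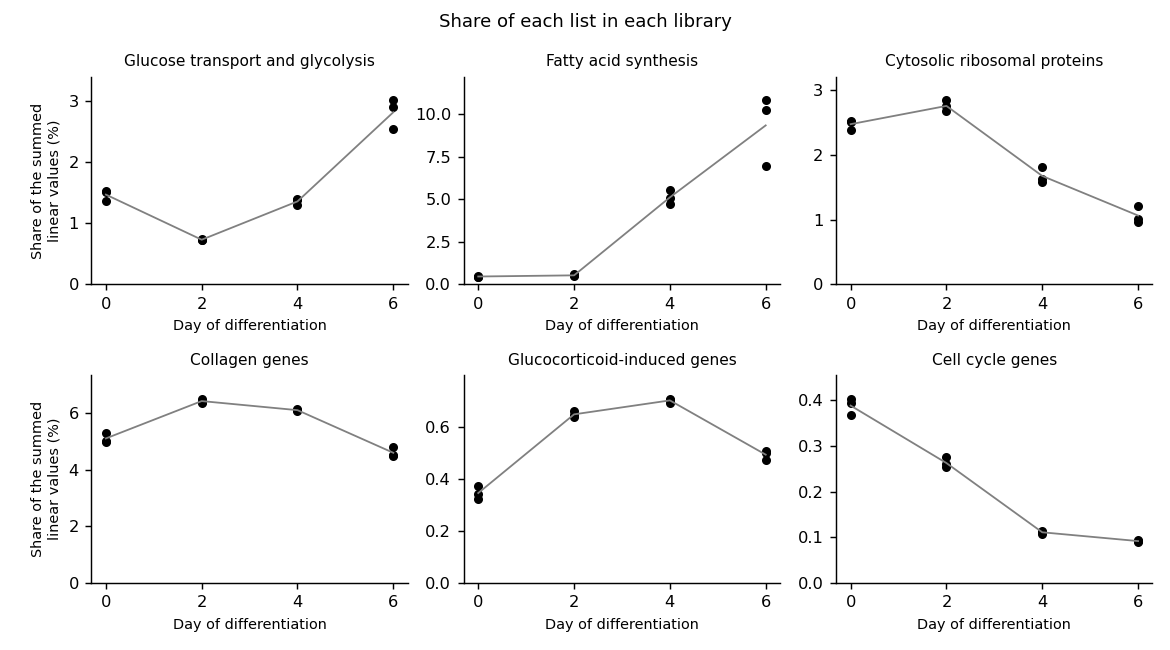
Share of each library's summed linear values (%, vertical, from 0) taken by the genes of 6 lists at days 0, 2, 4 and 6 (horizontal), with 1 point per library (3 per day) and a line through the day means. Glycolysis dips at day 2 and at day 6 exceeds every earlier day, and ribosomal protein genes fall after day 2. Day 6 library 3 is the lowest day 6 point of the fatty acid synthesis panel at 6.94%, a sum in which Scd1 weighs heavily.

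Genes of the glucocorticoid list, most of them known to be induced by the hormone, were mainly lower at day 6. Of 23 tested, 15 were lower and 4 higher, with a median of -0.66. Tsc22d3 (GILZ), a classical glucocorticoid target, had 10.19, 10.07 and 10.11 at day 6, against 11.35, 11.45 and 11.31 at day 4 (change -1.25, SE 0.07, limma adjusted p = 5.5e-08). Cdkn1c, a cell cycle inhibitor, had 10.99, 11.03 and 11.09 at day 6, against 12.41, 12.44 and 12.73 at day 4 (change -1.49, SE 0.09), and Lcn2, lipocalin 2, had 9.87, 9.56 and 9.54, against 10.96, 10.88 and 10.94 (change -1.27, SE 0.14). No day 6 library of these genes reached the day 4 range, but they were named for their small adjusted p.

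Fkbp5, a receptor co-chaperone, had day means of 10.00, 12.13, 12.57 and 11.47 at days 0, 2, 4 and 6 (late change -1.09, SE 0.12). For 14 of the 23 genes the late change lay below that between day 2 and day 4 and for 2 above it. The higher members were Hsd11b1 (1.05), which regenerates active glucocorticoid, Nr3c1 (0.73, SE 0.08), Angptl4 (0.51) and Ddit4 (0.41). Of these, Nr3c1 encodes the receptor itself and is not a standard induced gene, but it is kept in the counts and the median of the list. Per1, Ampd3, Sult1a1 and Pdk4 did not pass. Several members answer to other signals too; Lcn2 also stands in the adipokine and acute phase lists, and Klf9 among the adipogenic factors.

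Immediate early genes were lower for 9 of 22 and higher for 3 (median -0.45). Nr4a1, an orphan nuclear receptor, had 7.50, 7.88 and 7.42 at day 6, against 8.84, 8.76 and 8.68 at day 4 (change -1.16, SE 0.12), and Myc fell by 0.96 (SE 0.14) and Egr1 by 0.73 (SE 0.12). The higher ones were Ier3 (0.59), Btg2 (0.32) and Jun (0.31). Nr4a1 and Egr1 had already fallen between day 2 and day 4, by 1.50 and 1.15.

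Matrix and precursor genes declined, though far from all of them. Of 21 collagen genes, 11 were lower and 2 higher (median -0.18). Col4a1, of the basement membrane, had 15.98, 15.98 and 15.89 at day 6, against 16.55, 16.49 and 16.45 at day 4 (change -0.55, SE 0.06), and Col12a1 fell by 0.65 (SE 0.07) and Col6a3 by 0.62 (SE 0.07). Col1a1 fell by 0.63 and Col3a1, the other main fibrillar chain, was at 0.00 (SE 0.08). The higher members were Col15a1 (0.74) and Col14a1 (0.38). Summed, collagen genes made 4.47 to 4.80% of the day 6 libraries, against 6.09 to 6.13% of the day 4 libraries.

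Of 37 elastic fibre and matricellular genes, 18 were lower and 4 higher (median -0.22). Ltbp1, a binding protein of latent TGF-beta, had 10.73, 10.98 and 10.99 at day 6, against 11.88, 11.76 and 11.78 at day 4 (change -0.90, SE 0.09). Thbs1, thrombospondin 1, went the other way, with 14.05, 13.99 and 14.11 at day 6, against 13.33, 13.16 and 13.31 at day 4 (change 0.78, SE 0.07). Lama2, a laminin chain, fell by 1.05 (SE 0.13). Of 19 matrix proteases and inhibitors, 9 were lower and 4 higher (median -0.30). Mmp14, a membrane-bound collagenase, had 13.29, 13.28 and 12.91 at day 6, against 14.38, 14.50 and 14.53 at day 4 (change -1.31, SE 0.10, limma adjusted p = 4.4e-07). Timp2, with which it activates Mmp2, had 13.99, 14.02 and 13.93 at day 6, against 14.92, 14.99 and 14.93 at day 4 (change -0.97, SE 0.06). Mmp11 fell by 1.10 (SE 0.07) and Mmp2 by 0.76.

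Of 23 preadipocyte and fibroblast markers, 11 were lower and 3 higher (median -0.21). Pdgfrb, a growth factor receptor of mural and precursor cells, had 12.31, 12.34 and 12.15 at day 6, against 13.12, 13.12 and 13.01 at day 4 (change -0.82, SE 0.06), and Vim, vimentin, fell by 0.70 (SE 0.07). Gpx3, a secreted glutathione peroxidase, had 12.92, 12.92 and 12.43 at day 6, against 13.60, 13.59 and 13.59 at day 4 (change -0.84, SE 0.12). Sfrp4, a secreted Wnt antagonist, rose by 1.64 (SE 0.21). Dlk1 (-0.61) and Pdgfra (-0.35) were lower and Cd34 (0.56) higher. Of 15 smooth muscle markers, 5 were lower and 3 higher; Acta2 had 11.62, 11.73 and 11.76 at day 6, against 12.20, 12.07 and 12.32 at day 4 (change -0.50, SE 0.09), far below its day 0 mean of 16.85. Of 24 Wnt, TGF-beta and BMP genes, 7 were lower and 3 higher (median -0.14), against 15.6% and 16.3% of all genes. Dkk3 fell most (-1.73, SE 0.09).

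Cell cycle genes were lower for 17 of 35 and higher for 0 (median -0.31). Rrm2, a ribonucleotide reductase subunit, had 8.41, 8.31 and 8.17 at day 6, against 9.14, 9.18 and 9.17 at day 4 (change -0.87, SE 0.09), and the mitotic kinase Plk1 fell by 0.77 (SE 0.09). Mcm2, of the replicative helicase, fell by 0.57 (SE 0.09). The step before was larger: the median between day 2 and day 4 was -1.63, and for 32 of the 35 genes the late change lay above it by the test of the difference.

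Macrophage markers were mostly higher. Of 22 tested, 15 were higher and 2 lower (median 0.45). Adgre1, a surface receptor of macrophages, had 10.00, 10.04 and 10.24 at day 6, against 9.00, 9.02 and 8.68 at day 4 (change 1.19, SE 0.22, limma adjusted p = 8.1e-04). Mpeg1, perforin-2, rose by 0.75 (SE 0.13), and the complement genes C1qa and C1qb by 0.45 and 0.31. Gpnmb, a glycoprotein of lipid-laden macrophages, had 13.04, 13.22 and 12.62 at day 6, against 13.89, 13.74 and 13.88 at day 4 (change -0.88, SE 0.15), and Marco fell by 0.65. The list's share of summed values differed little between the days, as given above, but Gpnmb, which fell, weighs heavily in that sum. The share therefore does not follow the greater number of members that rose. Gpnmb also had means of 11.6 at day 6 and 11.8 at day 4 in B9 cultures, where only 5 macrophage markers were tested. Whether a larger number of macrophages or a change within them moved these genes was not tested.

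Of 36 interferon response genes, 16 were higher and 0 lower (median 0.53), and 34 had been higher at day 4 than at day 2. Isg15, a ubiquitin-like modifier, had 7.79, 7.26 and 7.41 at day 6, against 6.64, 6.62 and 6.57 at day 4 (change 0.87, SE 0.17, limma adjusted p = 0.0017), and Ifi27 rose by 0.89 (SE 0.09). Antigen presentation genes were higher for 6 of 14 and lower for 0 (median 0.53). H2-K1, a class I heavy chain, had 12.85, 12.83 and 12.46 at day 6, against 11.60, 11.54 and 11.59 at day 4 (change 1.14, SE 0.13), and H2-D1 rose by 0.91 (SE 0.09); reads of these near-identical genes may be shared. Adipocytes, fibroblasts and macrophages all express these genes, and the part of each in the change was not tested.

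Of 9 endothelial markers tested, 4 were lower and 0 higher, led by Flt1 (-1.12, SE 0.10), a VEGF receptor; Pecam1 (4.16 ± 0.46 at day 6 and 4.39 ± 0.26 at day 4), Cdh5 and Kdr were low and did not pass. The list's share was 0.0067 to 0.0074% at day 6, against 0.0108 to 0.0109% at day 4. Tek (-0.43, limma adjusted p = 0.046) overlapped between the days and did not pass under 8 alternatives. Of 18 chemokines and cytokines (1 tested through day 6 only), 5 were lower and 2 higher, against 15.6% and 16.3% of all genes. Among them, Ccl8 was at 1.45 (SE 0.17) and Cxcl13 at -1.14 (SE 0.20).

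Of 17 complement and acute phase genes, 8 were higher and 4 lower. Of 22 cell cycle inhibitors and p53 targets, 4 were higher and 5 lower, against 16.3% and 15.6% of all genes. Of 8 Schwann and glial markers, 1 (S100b) was lower. Smaller metabolic lists were mixed. Of 25 NRF2 and BACH1 targets, 14 were higher and 2 lower (median 0.35), but the leading members were enzymes of NADPH supply: beside Me1, G6pdx, the first enzyme of the pentose phosphate pathway, rose by 0.91 (SE 0.07), Tkt by 0.91 (SE 0.08) and Pgd by 0.64 (SE 0.06). Nqo1, a standard NRF2 target, fell by 0.55, and Hmox1, heme oxygenase, rose by 0.23. Of 22 iron genes, 12 were higher and 3 lower (median 0.32), with Trf, transferrin, at 1.77 (SE 0.16), Cp, ceruloplasmin, at 1.42 (SE 0.10) and Blvrb, a biliverdin reductase, at 1.15 (SE 0.14). Fth1 and Ftl1, the ferritin chains, were both at -0.16 and did not pass.

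Sterol synthesis genes split, 10 of 25 higher and 7 lower (median 0.17). Insig1, which retains SREBPs in the endoplasmic reticulum, had 12.85, 12.97 and 13.16 at day 6, against 11.90, 11.90 and 11.91 at day 4 (change 1.09, SE 0.07), and Sc5d rose by 1.16 (SE 0.10) and Acat2 by 0.66 (SE 0.07). The regulator Srebf2 fell by 0.72. Insulin signalling genes were higher for 13 of 26 and lower for 8; Igf1 had 11.85, 11.90 and 11.71 at day 6, against 10.41, 10.45 and 10.40 at day 4 (change 1.40, SE 0.09), having fallen by 1.80 in the interval before, and the adapter Grb10 fell by 0.74 (SE 0.08). Clock genes were higher for 9 of 19 and lower for 1 (median 0.42), Rora (0.82), Per3 (0.69) and Bhlhe40 (0.61) among them. Integrated stress response genes were higher for 6 of 28 and lower for 8, against 16.3% and 15.6% of all genes. Phgdh, of serine synthesis, was at -1.02 (SE 0.07) and Xbp1 at 0.49 (SE 0.08).

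The same interval in the brown cultures is set beside these values without a test between tables, each of which was normalized on its own. In pBAT cells 43.6% of 12875 genes passed in either direction (20.2% higher and 23.5% lower at day 6), and in B9 cells 54.1% of 12304 (26.9% higher and 27.2% lower). Ribosomal protein genes were mostly lower in all 3 (38 of 40 lower in pWAT, 39 in pBAT and 36 in B9). Of 25 glycolysis genes, 20 were higher in pWAT, 16 in pBAT and 20 in B9, with medians of 0.99 in pWAT, 0.27 in pBAT and 0.90 in B9. General adipocyte genes had medians of 0.72 in pWAT, -0.04 in pBAT and 0.00 in B9. Of 19 fatty acid synthesis genes, 16 were higher and 0 lower in pWAT, 1 higher and 11 lower in pBAT (median -0.50), and 16 higher and 0 lower in B9 (median 0.98). Sterol genes were higher for 10 and lower for 7 of 25 in pWAT (median 0.17), higher for 1 and lower for 23 of 25 in pBAT (median -0.91), and higher for 10 and lower for 7 of 24 in B9 (median 0.10). The glucocorticoid-induced list had medians of -0.66 in pWAT, 0.06 in pBAT and 0.18 in B9.

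**Figure D5:**
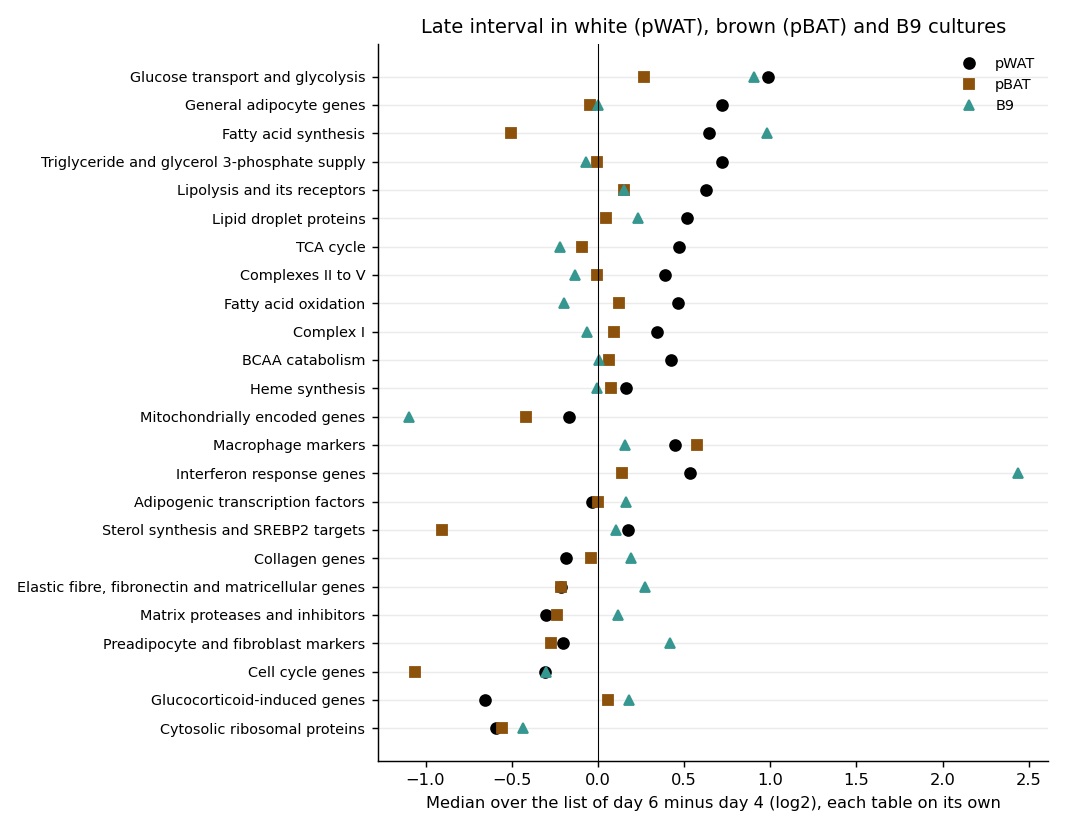
Median change between day 6 and day 4 (log2, horizontal) over each list in pWAT (circles), pBAT (squares) and B9 (triangles), each from its own table. Ribosomal protein genes lie left of 0 and glycolysis right of 0 in all 3 kinds of culture, while fatty acid synthesis lies at 0.65 in pWAT, -0.50 in pBAT and 0.98 in B9.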

How the data were processed

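RNA of the pWAT cultures was sequenced from stranded mRNA libraries made by BGI, per the labels' protocols; kallisto, DESeq2 and the GRCm39 build are named, without versions, in the submitters' processing notes. The authors deposited log2 values per Ensembl gene (base 2 and a shrunken log scale inferred from the values), not counts, so no count model was used and counting error is unknown. Symbols came from a GENCODE annotation of GRCm38 (99.8% of pWAT genes matched), and promoters from RefSeq on GRCm38.p6.

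Genes with a mean of at least 4 at day 6 or day 4 were fitted with limma 3.58.1 (R 4.3.3) on the log2 values as deposited, with a mean-variance trend and 1 mean per day over 12 pWAT libraries, and Benjamini-Hochberg adjustment over all genes tested; calls are at an adjusted p under 0.05. The same fit tested the late change minus that between day 2 and day 4, and was repeated within the pBAT and B9 tables. The script was tested on simulated data. Percentages of summed values use linear values over all genes of the table.

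The members and gene lists were chosen with earlier results of these data known. Genes named are the 12 largest rises and 12 largest falls among non-overlapping called genes with a mean of at least 6 over the 6 libraries, up to 4 genes of each list with the smallest adjusted p, the heme synthesis genes, and Ucp1, Adipoq, Fabp4, Pparg, Lep, Bcat2, Bckdha and Aldh6a1; other list members named to account for a list, and the promoter element, were picked after values were seen. Alternatives were filters, scalings, the variance prior, the libraries fitted, number blocks and each library left out. Library numbers are not given as marks of shared cultures, and same-numbered libraries did not deviate together. A few genes the rule names are not reported here.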

Additional observations from a re-analysis of the deposited data

Results flagged for a closer look

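These genes moved in pWAT cells one way and in brown cultures the other, every day 6 library lying on opposite sides of its own day 4 libraries and both changes passing limma at an adjusted p under 0.05. The difference between cultures was not tested, since each table was normalized on its own. Against pBAT, the pWAT changes were 1.16 for Agpat2 (pBAT -0.26), 0.60 for Abhd5 (-0.53), 1.29 for Me1 (-0.50), 1.66 for Elovl6 (-1.12), 1.26 for Slc25a1 (-0.19) and 1.19 for Gpam (-0.52). They were 1.13 for Fabp5 (pBAT -0.29), 0.91 for Mgll (-0.67), 1.09 for Insig1 (-0.87), 1.16 for Sc5d (-0.39), 0.66 for Acat2 (-0.91), 1.23 for Ldha (-0.19) and 0.72 for Adipoq (-0.60). Only named genes of selected lists, many of them of lipid metabolism, are given, so the leaning to lipid genes follows from that choice. Named genes of other lists met the same criteria. Among them were Acsl1 (0.86 in pWAT, -1.20 in pBAT and -1.80 in B9) and Gpx3 (-0.84 in pWAT, 1.31 in pBAT and 0.81 in B9). Against B9, the pWAT changes were 1.16 for Agpat2 (B9 -0.75), 1.00 for Fabp4 (-0.94), 0.60 for Abhd5 (-0.81), 1.13 for Fabp5 (-0.92), 0.66 for Acat2 (-0.53), -0.36 for Alas1 (0.42) and 0.39 for Alad (-0.35).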

How the results depend on the processing

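The counts of 2101 higher and 2012 lower genes stayed within 1.5 times under every alternative run: no filter on low values, a stricter filter, a filter over all days, no variance trend, median centring, quantile normalization, removal of mitochondrially encoded genes, and only the 6 libraries of both days, which gave the fewest lower genes (1806 higher and 1573 lower). Leaving out 1 library at a time gave 1674 to 2070 higher and 1620 to 2026 lower genes, and 1973 to 3181 genes, against 2925, whose late change differed from the preceding one. Median centring moved the higher share of calls to 47.6% and quantile normalization to 47.4%, from 51.1%. A replicate block gave 2031 higher and 2064 lower genes by library number, and 2106 and 2066 by title number; deviations of same-numbered libraries correlated between -0.01 and 0.03, so nothing shows that the numbers pair the samples. Of 165 called named genes, 160 passed under every one of the 16 alternatives that tested them, and 0 changed direction. The stricter filter tested 161 of them and the removal of mitochondrially encoded genes 162. Most were named for a large change or a small adjusted p in these same data, so their stability is not that of all called genes. Alad, mt-Atp6, mt-Nd1, Eng and Tek lost the call under at least 1, their adjusted p reaching 0.067, 0.12, 0.12, 0.055 and 0.18. Depth is unknown, so no floor can be set for low genes.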

Other observations

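Several large changes lay outside the rule for named genes and are given here, picked after their values were seen. Arg1, the arginase of the urea cycle, had a mean of 6.42 ± 0.06 at day 6 and 3.11 ± 0.26 at day 4 (SD, n = 3 each). It entered the test through its day 6 level only, so its change of 3.31 is a description. Mfng, a glycosyltransferase that modifies Notch, rose by 2.86, Podnl1 by 2.70, the adenylate kinase Ak4 by 1.93 and Sucnr1, the succinate receptor, by 1.90. Mfng and Podnl1 rose by more than Rbp4 (2.59) but did not meet all conditions of that rule (a call, a mean of at least 6 and no overlap). Among the falls were Dpep1, a membrane dipeptidase (-1.81, SE 0.18), Fabp3, the heart-type fatty acid carrier (-1.84, SE 0.23), and Trnp1 (-1.89, SE 0.11). Fabp3 thus moved opposite to Fabp4 and Fabp5, which rose by 1.00 and 1.13.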
